A study of Rattus norvegicus with 12 samples.

Results

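Among the transcripts counted in the nucleus accumbens shell (NAcsh) of 12 rats, the 8 with the most counts were described here, out of 41064 Ensembl rat transcripts listed and 28622 with at least 1 count. They were chosen by adding up each transcript's counts over the 12 rats and taking the 8 largest sums, so their high level is what chose them and is given as a description. The rats were male Sprague-Dawley rats that had self-administered cocaine and then spent 1 or 21 days in forced abstinence, after which all were tested for cue reactivity without cocaine for 1 h and killed. During abstinence they were either kept isolated (IC) or moved to an enriched environment (EE), a larger cage shared by 3 to 6 rats with a running wheel, tubes and toys. This gave the groups IC1D, IC21D, EE1D and EE21D with 3 rats in each, and both punches of a rat were pooled. No group was without cocaine, so every value is from a rat with a history of cocaine.

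The shell is the part of the ventral striatum in which medium spiny neurons receive dopamine from the midbrain and glutamate from cortex, amygdala and hippocampus, and it takes part in cue-driven drug seeking. Seeking of cocaine is known to grow over weeks of abstinence, which is called incubation. In libraries made by amplifying total RNA, a small number of transcripts often takes a large part of the reads, and ribosomal RNA, mitochondrially encoded transcripts and short structured RNAs are among the kinds known to do so. Which kind each of the 8 belongs to was not analysed here. The counts name transcripts by Ensembl identifier, and the RefSeq table used gives an Ensembl identifier in 0 of its 47357 rows. Through that table no transcript, member or not, could therefore be matched to a gene, and the transcripts that the paper's text pairs with a gene (Camk2d and Eif4e2) are not members. Gene names, sequences, lengths, other isoforms of the same gene and marker genes of the tissue were for the same reason not analysed here. The order of the 8 is therefore an order of counts and not of molecules per length, and because StringTie divided reads among overlapping transcripts, each count is uncertain to the extent that the transcript shares sequence with others.

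The counts of a rat summed to 11725831 to 26975339, with a mean of 21624174. That mean is below the mean number of mapped reads per sample that the paper reports. Every share given here is therefore a share of the counts assigned to transcripts and not of all reads. With these totals the widest Wilson 95% interval of any member's share spanned 0.0531 percentage points, which covers counting error only, since amplified reads are not independent molecules. One library stood apart from the rest. IC21D rat A24 had counts on 13936 transcripts, against 19571 or more in each other rat, and the scaling factor of its library by the trimmed mean of M-values (TMM) was 0.617, the lowest of the 12 (highest 1.25, EE1D rat A12). Values without this rat are given for the comparisons, the pairs and the spread over rats.

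By sum the order was ENSRNOT00000069133, ENSRNOT00000040038, ENSRNOT00000050156, ENSRNOT00000092949, ENSRNOT00000048767, ENSRNOT00000042098, ENSRNOT00000040993 and ENSRNOT00000042928. The first held 105070515 counts, 3.13 times those of the second and 75.04 times those of the eighth. The threshold fell in a gradual part of the ranking. ENSRNOT00000042928 was the last one inside with 1400284 counts, and ENSRNOT00000049683, just outside, had 1323913, so that the eighth sum was 1.06 times the ninth. In the tenth place ENSRNOT00000046108 had 1178169 counts. The ratio of the highest to the lowest share over the 12 rats was 2.17 for the eighth, 3.05 for the ninth and 6.07 for the tenth.

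The first 2 places were fixed and the lower ones moved. ENSRNOT00000069133 was first and ENSRNOT00000040038 second in 12 of 12 rats. ENSRNOT00000050156 held rank 3 in 10 rats and reached rank 5 in EE1D rat A16. ENSRNOT00000092949 held ranks 3 to 6, ENSRNOT00000048767 ranks 4 and 5, and ENSRNOT00000042098 ranks 5 to 7. ENSRNOT00000040993 held ranks 6 to 11 and ENSRNOT00000042928 ranks 8 to 11, with a median rank of 9. No rat showed the whole order of the pooled sums. In 11 rats 7 of the 8 members were among the rat's own 8 highest counts, and EE21D rat A13 was the only one in which all 8 were.

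ENSRNOT00000069133 took 30.9%, 33.7% and 50.6% of the counts in the IC1D rats A2, A20 and A23, and 39.7%, 48.4% and 38.2% in the IC21D rats A9, A24 and A3. It took 31.3%, 54.8% and 48.9% in the EE1D rats A12, A16 and A27, and 33.0%, 31.8% and 40.2% in the EE21D rats A13, A14 and A1. Both 1-day groups held low and high rats, so the 4 groups overlapped. The group means were 38.4% ± 10.6 in IC1D, 42.1% ± 5.5 in IC21D, 45.0% ± 12.2 in EE1D and 35.0% ± 4.55 in EE21D (SD, n = 3 each).

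The share of ENSRNOT00000040038 was 11.3%, 11.1% and 11.9% in IC1D rats A2, A20 and A23 and 10.1%, 17.9% and 15.4% in IC21D rats A9, A24 and A3. In the EE1D rats A12, A16 and A27 it was 12.9%, 10.95% and 11.5%, and in the EE21D rats A13, A14 and A1 it was 15.2%, 13.5% and 12.8%. IC21D thus held both the lowest and the highest rat, and its mean of 14.4% ± 4.0 (SD, n = 3) stood beside 11.4% ± 0.456 in IC1D, 11.8% ± 1.0 in EE1D and 13.8% ± 1.24 in EE21D. Over both housing conditions its mean share was 14.1% ± 2.67 in the 6 rats at 21 days and 11.6% ± 0.723 in the 6 rats at 1 day. An exact two-sided permutation test on the share gave p = 0.0498 for that difference, the smallest of the 16 such tests, unadjusted. Without 1 rat at a time, a choice made after the value was seen, the exact p ran from 0.00866 (without A9) to 0.0996 (without A24, A3 or A13) and was under 0.05 in 2 of 12 cases, while the difference stayed positive. On the log2 scale of TMM-normalized counts described below, the same exact permutation test gave p = 0.407.

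ENSRNOT00000050156 stood at 4.39%, 3.76% and 2.07% in IC1D rats A2, A20 and A23 and at 2.93%, 2.49% and 3.16% in IC21D rats A9, A24 and A3. Its values were 4.62%, 1.49% and 1.97% in EE1D rats A12, A16 and A27 and 3.98%, 4.63% and 3.00% in EE21D rats A13, A14 and A1. The 3 rats in which the first transcript took the largest shares, A16, A23 and A27 at 54.8%, 50.6% and 48.9%, were the 3 with the smallest shares of ENSRNOT00000050156. EE1D had the widest spread, with a mean of 2.69% ± 1.69 (SD, n = 3) against 3.40% ± 1.20 in IC1D, 2.86% ± 0.341 in IC21D and 3.87% ± 0.820 in EE21D.

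For ENSRNOT00000092949 the shares were 1.09%, 1.15% and 1.48% in IC1D rats A2, A20 and A23 and 0.874%, 2.56% and 2.25% in IC21D rats A9, A24 and A3. EE1D rats A12, A16 and A27 had 1.26%, 1.97% and 1.56%, and EE21D rats A13, A14 and A1 had 1.32%, 1.00% and 1.67%. IC21D again held the lowest and the highest rat. Its mean was 1.90% ± 0.897, against 1.24% ± 0.212 in IC1D, 1.60% ± 0.354 in EE1D and 1.33% ± 0.335 in EE21D (SD, n = 3 each).

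ENSRNOT00000048767 had shares of 1.69%, 1.19% and 0.961% in IC1D rats A2, A20 and A23 and 0.933%, 1.46% and 1.45% in IC21D rats A9, A24 and A3. The EE1D rats A12, A16 and A27 had 1.69%, 1.52% and 0.943%, and the EE21D rats A13, A14 and A1 had 1.61%, 1.22% and 1.31%. Its 4 group means lay close together, between 1.28% and 1.39%. ENSRNOT00000042098 had shares of 1.39%, 0.966% and 0.668% in IC1D, 0.724%, 1.00% and 1.08% in IC21D, 1.49%, 0.828% and 0.609% in EE1D and 1.28%, 1.04% and 0.996% in EE21D, with the rats in the same order. EE1D held its highest and its lowest rat, A12 and A27, and its group means lay between 0.934% and 1.11%.

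ENSRNOT00000040993 had the widest range of the 8. Its share was 0.753%, 0.671% and 0.489% in IC1D rats A2, A20 and A23, and 0.266%, 1.06% and 1.09% in IC21D rats A9, A24 and A3, A9 being the lowest and A3 the highest of all rats. It was 0.817%, 0.737% and 0.457% in EE1D rats A12, A16 and A27 and 0.864%, 0.677% and 0.836% in EE21D rats A13, A14 and A1. The highest share was 4.11 times the lowest, against 1.77 times for ENSRNOT00000069133. ENSRNOT00000042928 had shares of 0.583%, 0.435% and 0.428% in IC1D, 0.333%, 0.723% and 0.704% in IC21D, 0.625%, 0.610% and 0.403% in EE1D and 0.625%, 0.486% and 0.517% in EE21D. Its lowest and highest rats, A9 and A24, were both in IC21D.

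When the 4 group means of each member were put in order, 23 of the 24 neighbouring means differed by less than the larger SD of the pair, and in all 24 the rats of the 2 groups overlapped. The exception was ENSRNOT00000040038, where the EE21D mean exceeded the EE1D mean by 2.04 percentage points with a larger SD of 1.24. The share of the 8 together was 57.9% ± 9.31 in IC1D, 64.9% ± 9.96 in IC21D, 64.7% ± 9.21 in EE1D and 57.8% ± 3.50 in EE21D (SD, n = 3 each). Without the first transcript, the other 7 took 16.1% (A9) to 27.2% (A24) of a rat's counts. Of the counts that were not on the first transcript, they took 35.8% ± 6.72 (SD, n = 12), from 26.7% in A9 to 52.7% in A24.

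**Figure D1:**
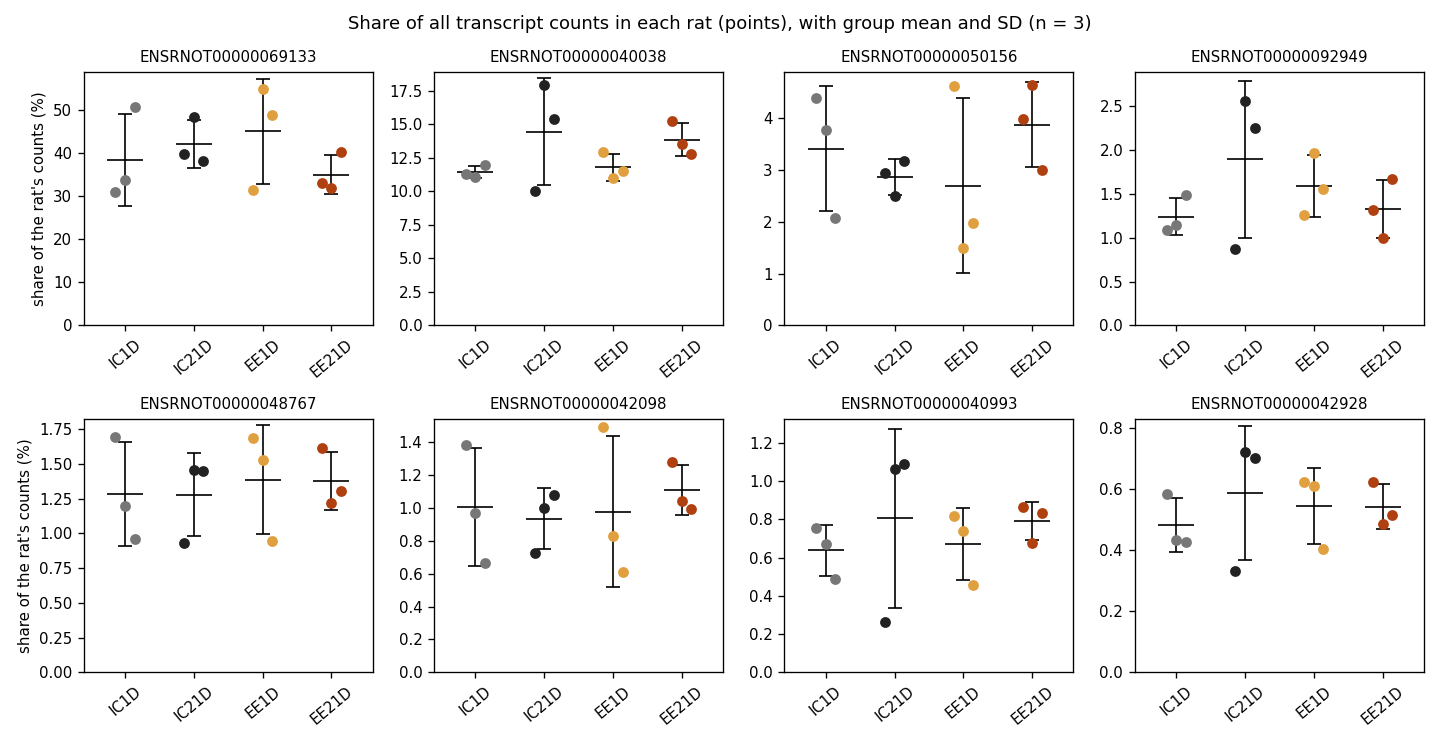
Share of the transcript counts of each rat (vertical axes, percent, starting at 0 and scaled for each transcript) taken by the 8 transcripts in the groups IC1D, IC21D, EE1D and EE21D; points are rats, horizontal lines are group means and bars are SD, n = 3. IC1D and EE21D do not overlap for ENSRNOT00000040038, all other pairs of groups overlap in every panel, and for ENSRNOT00000040038, ENSRNOT00000092949, ENSRNOT00000040993 and ENSRNOT00000042928 the lowest and the highest rat are both in IC21D.

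To compare rats, the counts were next divided by the TMM-scaled library size, as CPM, and put on a log2 scale with a prior count of 2. On this scale IC21D rat A24 had the highest level of all 8 members, and IC21D rat A9 had the lowest level of 6 of them. The lowest level of ENSRNOT00000069133 was in EE1D rat A12 and that of ENSRNOT00000050156 in EE1D rat A16. The library size of A24 was scaled with the lowest factor, 0.617, which raises all its levels. By share A24 was highest only for ENSRNOT00000040038, ENSRNOT00000092949 and ENSRNOT00000042928. By ratio to the counts of all transcripts that are not members, A16 exceeded A24 for ENSRNOT00000069133 (2.02 against 1.98). On that ratio A12 exceeded A24 for ENSRNOT00000050156 (0.10202 against 0.10189). For each of the other members A24 was highest on that ratio too. It had 0.732 for ENSRNOT00000040038 (next 0.419, A3) and 0.0597 for ENSRNOT00000048767 (next 0.0563, A16). The 8 together took 75.6% of the counts of A24, the largest such share of the 12 rats. The highest CPM was 7.96 times the lowest for ENSRNOT00000040993, 5.82 times for ENSRNOT00000092949 and 1.94 times for ENSRNOT00000050156. The SD over the 12 rats was 0.79 (log2) for ENSRNOT00000092949, 0.74 for ENSRNOT00000040993, 0.62 for ENSRNOT00000069133, 0.57 for ENSRNOT00000042928, 0.49 for ENSRNOT00000040038, 0.47 for ENSRNOT00000048767, 0.41 for ENSRNOT00000042098 and 0.33 for ENSRNOT00000050156. The median of these was 0.53, and that of the 10342 transcripts that had 10 or more counts in each of the 12 rats was 0.42. Without A24, leaving the scaling as it was, the range was 5.37-fold for ENSRNOT00000040993, 3.86-fold for ENSRNOT00000092949, 2.0-fold for ENSRNOT00000040038 (3.54-fold with A24) and 1.83-fold for ENSRNOT00000050156, and the median SD was 0.43 for the members and 0.38 for all 10342 transcripts. Over the 12 rats, differences between the 4 groups made up a median of 15.1% of a member's variance over rats and 23.1% of that of all 10342 transcripts. Without A24 these medians were 12.5% and 26.4%. Means of 3 rats differ through the spread of single rats alone, so such percentages are above 0 without any effect of housing or abstinence. They were not compared with the level that arises without such an effect. Over the 12 rats the percentage was lowest for ENSRNOT00000042098, at 3.20%, and highest for ENSRNOT00000050156, at 23.3%, and without A24 they were 8.13% and 26.1%.

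**Figure D2:**
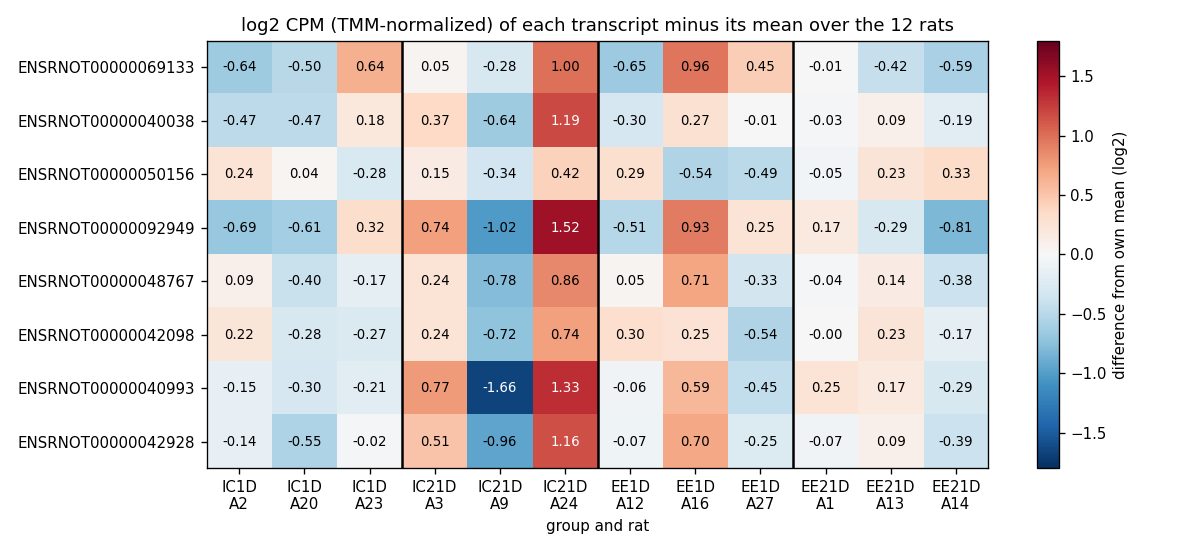
Difference of each transcript's log2 CPM (TMM-normalized) from its own mean over the 12 rats, with transcripts as rows, rats as columns in their groups and colour and number giving the difference. All 8 transcripts are highest in IC21D rat A24, and 6 of the 8 are lowest in IC21D rat A9.

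The Incubation contrast, IC21D over IC1D, asks what changes with abstinence in isolated rats. None of the 8 members was called. With edgeR's quasi-likelihood test 0 of 8 had an adjusted p-value under 0.05, as did 0% of the 28622 transcripts tested, and 0 of 8 had an unadjusted p-value under 0.05, which 4.47% of all transcripts had. DESeq2 called 0 of 8 members and 0.586% of the 27818 transcripts it tested. All 8 fitted log2 fold changes were above 0, with a median of 0.55 against -0.06 over all transcripts. The values were 0.41 (SE 0.49) for ENSRNOT00000069133, 0.71 (SE 0.39) for ENSRNOT00000040038, 0.09 (SE 0.28) for ENSRNOT00000050156 and 1.00 (SE 0.58) for ENSRNOT00000092949. For ENSRNOT00000048767, ENSRNOT00000042098, ENSRNOT00000040993 and ENSRNOT00000042928 they were 0.40 (SE 0.38), 0.29 (SE 0.35), 0.81 (SE 0.55) and 0.70 (SE 0.44). The smallest adjusted p-value was 0.843, in edgeR.

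These directions changed with IC21D rat A24, and the size with IC21D rat A9. Without A24, 4 of 8 members were higher, their median log2 fold change was 0.07, and 0 of 8 had an unadjusted p-value under 0.05 beside 3.95% of all transcripts. Without A9 all 8 were higher with a median of 0.89, and 5 of 8 had an unadjusted p-value under 0.05 beside 7.82% of all transcripts. Those 5 were ENSRNOT00000040038 at 1.05 (SE 0.31), ENSRNOT00000092949 at 1.43 (SE 0.47), ENSRNOT00000048767 at 0.73 (SE 0.32), ENSRNOT00000040993 at 1.3 (SE 0.30) and ENSRNOT00000042928 at 1.09 (SE 0.32). The smallest of their adjusted p-values by edgeR was 0.350, for ENSRNOT00000040993, so 0 of 8 were called. Without A9, IC21D consists of A24 and A3 only. The members share each rat's scaling factor, and most of them vary together over rats, as described below. Counts such as 5 of 8 are thus not separate results, here and in the comparisons that follow.

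The Enrichment contrast, EE21D over IC21D, asks what enriched housing changes after 21 days. It contains the same IC21D rats as the Incubation contrast, with the opposite sign, so the values of both are not independent. With edgeR 0 of 8 members passed at an adjusted p-value under 0.05 (0% of all transcripts) and 0 of 8 at an unadjusted p-value under 0.05 (3.33% of all transcripts), and DESeq2 called 0 of 8 (0.546% of all transcripts). The log2 fold change was -0.68 (SE 0.49) for ENSRNOT00000069133, -0.53 (SE 0.39) for ENSRNOT00000040038, 0.07 (SE 0.28) for ENSRNOT00000050156 and -1.0 (SE 0.58) for ENSRNOT00000092949. It was -0.33 (SE 0.38) for ENSRNOT00000048767, -0.18 (SE 0.35) for ENSRNOT00000042098, -0.53 (SE 0.55) for ENSRNOT00000040993 and -0.59 (SE 0.44) for ENSRNOT00000042928. The smallest adjusted p-value was 0.968 by edgeR. Hence 1 of 8 was higher, with a median of -0.53 against 0.10 over all transcripts. Without A24, 5 of 8 were higher with a median of 0.03, and 0 of 8 had an unadjusted p-value under 0.05 (2.76% of all transcripts). Without A9, 0 of 8 were higher with a median of -0.90, and 4 of 8 had an unadjusted p-value under 0.05 (6.46% of all transcripts).

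In the other comparisons no member was called either. For EE21D over EE1D edgeR gave 0 of 8 at an adjusted p-value under 0.05 (0% of all transcripts) and 0 of 8 at an unadjusted p-value under 0.05 (2.02% of all transcripts), and DESeq2 called 0 of 8 (0.446% of all transcripts). ENSRNOT00000050156 was the 1 member with a positive log2 fold change, at 0.37 (SE 0.28), beside -0.72 (SE 0.49) for ENSRNOT00000069133, and the median over the 8 was -0.16. Without EE1D rat A16, 6 of 8 were positive with a median of 0.071, and without EE21D rat A14, 4 of 8 were positive with a median of -0.063. For EE1D over IC1D the edgeR counts were 0 of 8 (adjusted, 0% of all transcripts) and 0 of 8 (unadjusted, 2.75% of all transcripts), and DESeq2 called 0 of 8 (0.46% of all transcripts). There ENSRNOT00000050156 was the 1 member with a negative value, at -0.21 (SE 0.28), and the median was 0.33. Without EE1D rat A16, 6 of 8 were positive with a median of 0.038. In both comparisons the smallest adjusted p-value among members was 1 by edgeR.

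Over all 12 rats, with both factors in the model, 21 days over 1 day of forced abstinence gave 7 of 8 positive log2 fold changes, from -0.15 (ENSRNOT00000069133) to 0.39 (ENSRNOT00000040993). With edgeR 0 of 8 passed adjusted (0% of all transcripts) and 0 of 8 unadjusted (2.4% of all transcripts), and with DESeq2 0 of 8 passed (0.0475% of all transcripts). Enriched over isolated housing gave values from -0.21 (ENSRNOT00000092949) to 0.01 (ENSRNOT00000048767). Here too 0 of 8 passed adjusted (0% of all transcripts) and 0 of 8 unadjusted (2.49% of all transcripts) with edgeR, and 0 of 8 with DESeq2 (0.0548% of all transcripts). Without A24 the median over the 8 changed sign in both, to -0.07 for abstinence and 0.16 for housing. Exact two-sided permutation tests on single members, 6 rats against 6 on log2 CPM, gave unadjusted p-values of 0.216 to 0.950 for abstinence and 0.688 to 0.998 for housing.

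The interaction of housing and abstinence, the change over abstinence in EE minus that in IC, was below 0 for 7 of 8 members. It was largest in size for ENSRNOT00000092949, at -1.59 (SE 0.82), with an unadjusted p-value of 0.0779 and an adjusted p-value of 0.90 by edgeR, and it was 0.28 (SE 0.40) for ENSRNOT00000050156. With edgeR 0 of 8 passed adjusted (0% of all transcripts) and 0 of 8 unadjusted (5.15% of all transcripts), and with DESeq2 0 of 8 passed (0.748% of all transcripts). The median over all transcripts was 0.20 with TMM and 0.03 with upper-quartile scaling, and that over the members was -0.80 and -1.04. Without A24 the members' median was -0.26, with 0 of 8 unadjusted (5.14% of all transcripts). Without A9 it was -1.21, with 5 of 8 at an unadjusted p-value under 0.05 (7.49% of all transcripts) and a smallest adjusted p-value of 0.608 by edgeR.

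On the share of counts, 1 of the 48 combinations of a member and a pair of groups did not overlap. This was ENSRNOT00000040038, whose 3 shares in EE21D were all above those in IC1D, and 5.23% of all transcripts separated these groups on that scale. On TMM-normalized CPM all 48 overlapped. On TMM-normalized CPM, 0 of 8 separated IC21D from IC1D, where 7.91% of all transcripts did, and 0 of 8 separated EE21D from IC21D, where 7.71% did. The counts were 0 of 8 for EE21D and EE1D, beside 7.14%, and 0 of 8 for EE1D and IC1D, beside 8.08%. They were also 0 of 8 for EE21D and IC1D (6.76% of all transcripts) and for IC21D and EE1D (5.09% of all transcripts). With 6 rats against 6, 0 of 8 were separated by housing (0.0978% of all transcripts) and 0 of 8 by abstinence length (0.0594% of all transcripts).

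**Figure D3:**
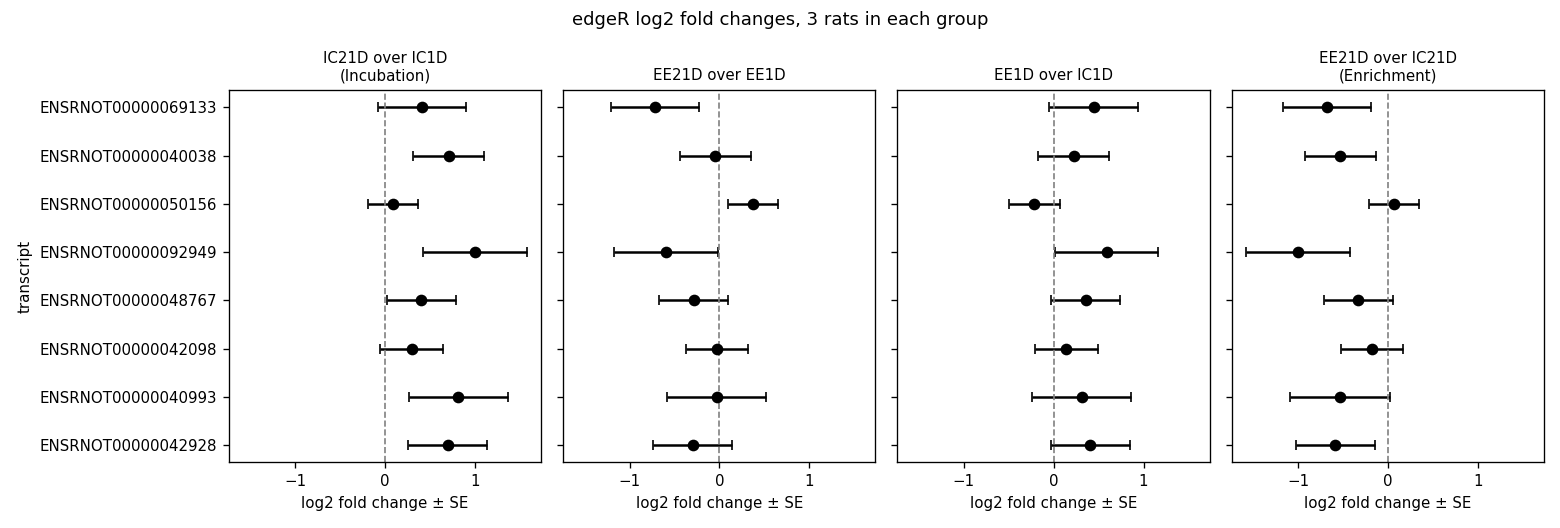
Log2 fold changes fitted by edgeR (horizontal axis) of the 8 transcripts (rows) in 4 comparisons of groups of 3 rats, with bars giving the SE. All 8 points are above 0 in the Incubation panel and 7 of 8 are below 0 in the Enrichment panel, and 0 of 8 were called in any panel.

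How the members vary together was examined over the 12 rats by Pearson's r and Spearman's rho of log2 CPM for all 28 pairs. The p-values came from 100000 permutations and were adjusted over the 28 pairs. All 8 values of a rat come from 1 library and share its scaling factor, so values on other scales are given below. With r, 17 of 28 pairs passed at an adjusted p-value under 0.05, and all 17 were positive. With rho 15 passed. The median r was 0.781, and 26 of 28 were positive. Among all 53473311 pairs of those 10342 transcripts, the median was 0.004, and 3.80% reached 0.654, the smallest r among the 17. The members have the most counts of these transcripts, and pairs of like abundance were not compared separately. Other transcripts with many counts also had high r with members, as given below for the nearest ones.

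The called pairs joined 7 of the members. Of the 21 pairs without ENSRNOT00000050156, 17 were called, and of its own 7 pairs 0 were called. ENSRNOT00000042928 and ENSRNOT00000040038 each had 6 called partners, and ENSRNOT00000069133 had 3, which were ENSRNOT00000040038, ENSRNOT00000092949 and ENSRNOT00000042928. All 6 pairs among ENSRNOT00000048767, ENSRNOT00000042098, ENSRNOT00000040993 and ENSRNOT00000042928 were called, with r between 0.848 and 0.966.

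The closest pair was ENSRNOT00000048767 and ENSRNOT00000042928. Their r was 0.966 (permutation p = 1e-05, the smallest that 100000 permutations can give, adjusted p = 0.00014) and rho was 0.930 (permutation p = 6e-05). Without A24 and A9, the rats farthest from the median of the first of the pair, r was 0.923 (permutation p = 8e-05). The count ratio of ENSRNOT00000048767 to ENSRNOT00000042928 stayed between 2.02 in A24 and 2.90 in A2, and the SD of its log2 value was 0.17, the smallest of the 28, whose median was 0.42. The next smallest was 0.20, for ENSRNOT00000048767 and ENSRNOT00000042098, with r = 0.908 (permutation p = 0.00012, adjusted p = 0.000467) and rho = 0.895 (permutation p = 0.0002).

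High correlations with a less constant ratio were found for ENSRNOT00000092949. Its r was 0.926 with ENSRNOT00000040038 (permutation p = 3e-05, adjusted p = 0.00021, rho 0.923 with permutation p = 7e-05) and 0.883 with ENSRNOT00000069133 (permutation p = 0.00015, adjusted p = 0.000467, rho 0.825 with permutation p = 0.00167), while the SD of the log2 ratio was 0.38 in both pairs. The ratio of ENSRNOT00000040038 to ENSRNOT00000092949 ran from 5.57 in A16 to 13.5 in A14. Without the rats A24 and A9, r of that pair was 0.875 (permutation p = 0.00141). Without A24 and A16, r of ENSRNOT00000092949 and ENSRNOT00000069133 was 0.763 (permutation p = 0.0111).

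**Figure D4:**
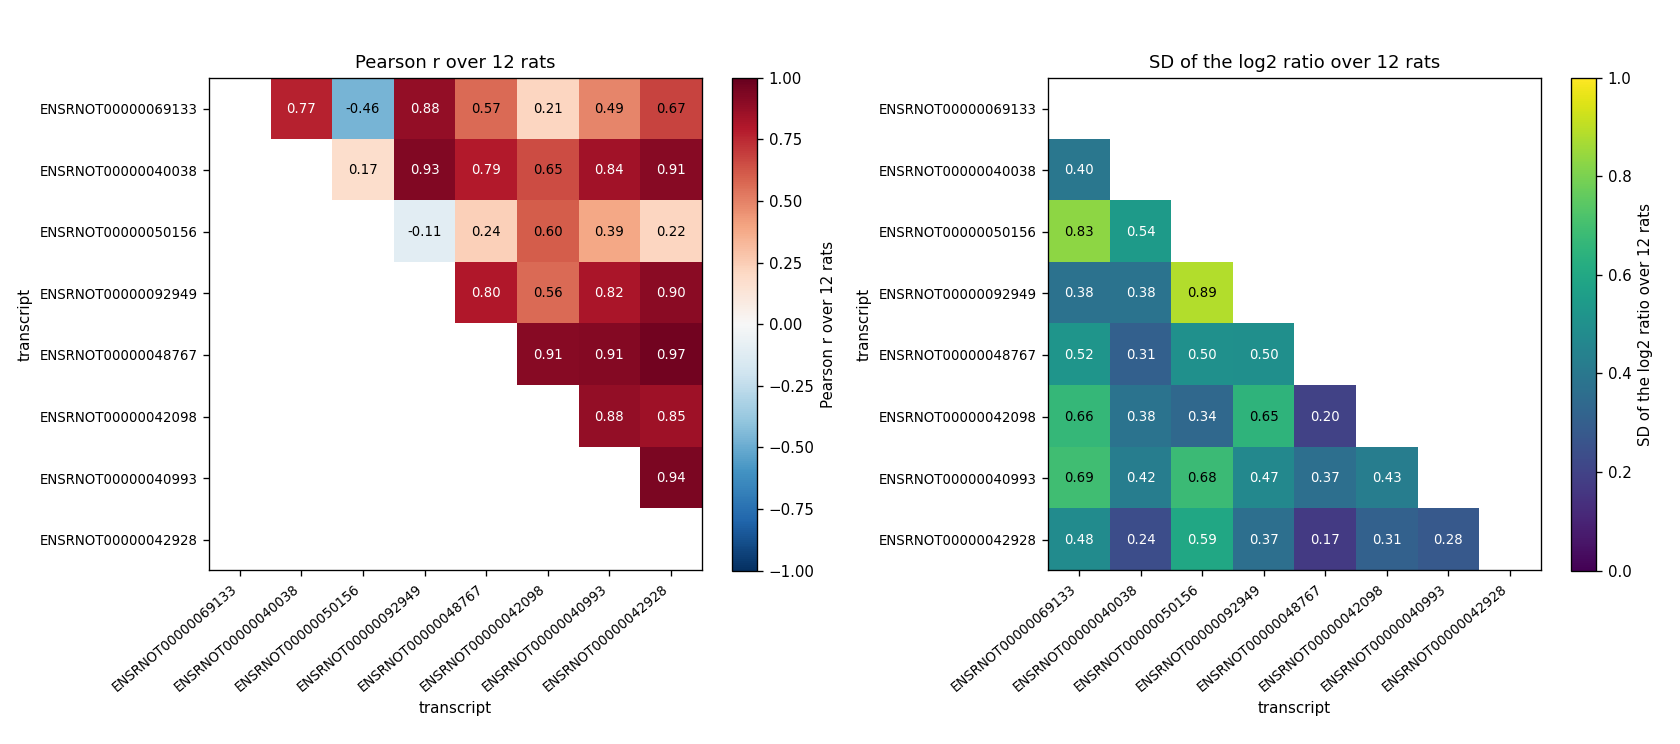
Pearson r of log2 CPM over the 12 rats (left, colour and number) and SD of the log2 ratio (right, colour and number) for the 28 pairs of the 8 transcripts. The row and column of ENSRNOT00000050156 hold both values below 0 on the left, -0.46 and -0.11, and the largest SD on the right, 0.89 with ENSRNOT00000092949.

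The lowest r of the 28 pairs was that of ENSRNOT00000050156 and ENSRNOT00000069133. Their r was -0.463 (permutation p = 0.132, adjusted p = 0.167), rho was -0.420 (permutation p = 0.178), and the pair was not called. With each group's mean subtracted, their r was -0.419 (permutation p within groups = 0.326). On log2 CPM A24 had the highest level of both. Over the other 11 rats r was -0.833, and leaving out A24 and A16 gave -0.763 (permutation p = 0.0118). The ratio of ENSRNOT00000069133 to ENSRNOT00000050156 ran from 6.78 in EE1D rat A12 to 36.9 in EE1D rat A16, which are rats of the same group. The highest r of ENSRNOT00000050156 with another member was 0.605, with ENSRNOT00000042098 (permutation p = 0.0372, adjusted p = 0.0579, rho 0.510 with permutation p = 0.0939). Without A16 and A27 that r was 0.807 (permutation p = 0.0036).

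**Figure D5:**
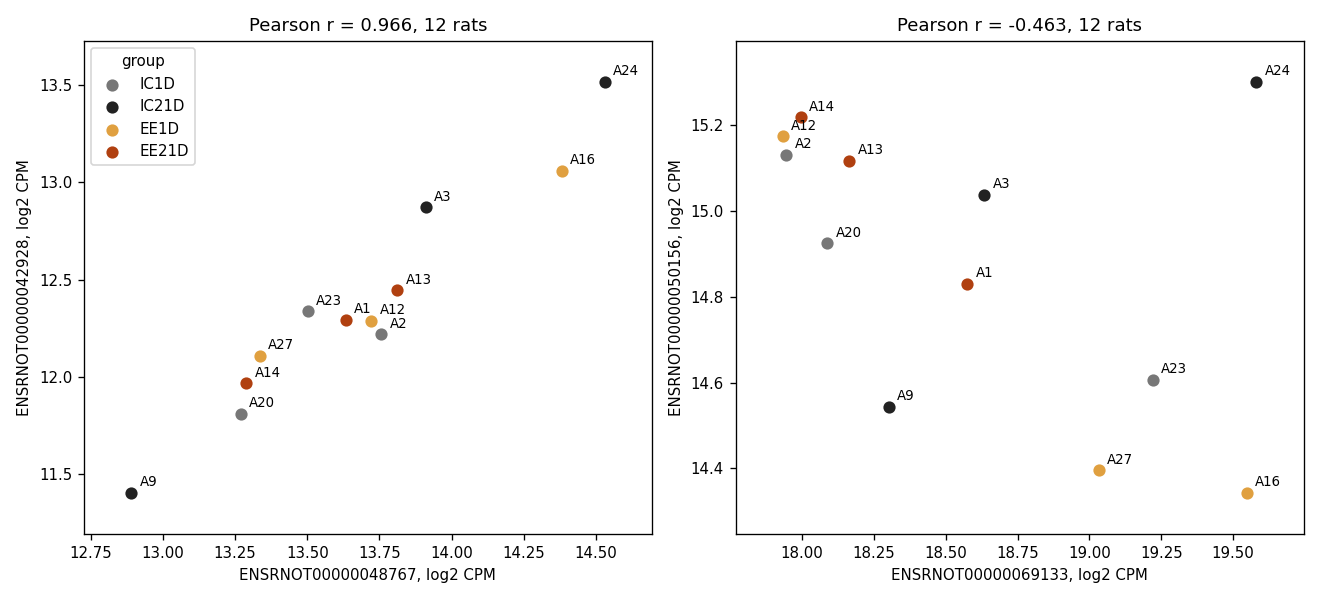
Log2 CPM (TMM-normalized) of ENSRNOT00000042928 against ENSRNOT00000048767 (left) and of ENSRNOT00000050156 against ENSRNOT00000069133 (right), each point a rat coloured by group. On the left the rats lie along 1 line with r = 0.966, and on the right IC21D rat A24 is the highest on both axes, with r = -0.463 over the 12 rats and -0.833 over the other 11.

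Of the 17 called pairs, 12 had an unadjusted permutation p-value under 0.05 without the 2 rats farthest from the median of the first member of the pair. That is a looser threshold than the adjusted one by which the 17 were called. The other 5 did not, with 10 rats left. They were ENSRNOT00000069133 with ENSRNOT00000040038 (r 0.769, then 0.621) and with ENSRNOT00000042928 (0.672, then 0.253), ENSRNOT00000040038 with ENSRNOT00000048767 (0.793, then 0.517) and with ENSRNOT00000042098 (0.654, then 0.134), and ENSRNOT00000092949 with ENSRNOT00000048767 (0.800, then 0.527). Without A24, 16 pairs were called and 1 of them was negative, that of ENSRNOT00000069133 and ENSRNOT00000050156.

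The scale changed what was shared. Against the counts of all transcripts that are not members, 17 pairs were called, all positive, and the median r over all 28 pairs was 0.766. On the log2 share of all counts 11 were called, 9 positive and 2 negative, and the median over all 28 pairs was 0.419. A rat's shares have a fixed sum, so a larger share of the first transcript leaves less for all others by construction. On that scale r of ENSRNOT00000069133 was -0.979 with ENSRNOT00000050156 and -0.767 with ENSRNOT00000042098, but 0.608 with ENSRNOT00000092949. The pair of ENSRNOT00000048767 and ENSRNOT00000042928 had 0.877, and that of ENSRNOT00000040993 and ENSRNOT00000042928 had 0.929. After subtracting each group's mean, with all 1296 permutations within groups, 11 pairs were called by the exact test, all positive. The median r over all 28 pairs was 0.796. The 11 pairs thus varied together within the 4 groups taken jointly, which does not show it for each group. IC21D, with A24 and A9, had the largest SD of the log2 ratio to transcripts that are not members for all but ENSRNOT00000069133 and ENSRNOT00000050156. The test within groups was not run without A24.

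For each member the 3 most similar transcripts were taken among the 10342, by r over the 12 rats, as a description without a test. Their r lay between 0.865 and 0.988. They were picked for the highest r out of many over 12 rats, so a high value comes with the choice. How high it would be for unrelated transcripts was not tested. Of these 24 neighbours 19 were different transcripts, 3 were members, and 10 were among the 20 with the most counts. ENSRNOT00000092949 had the nearest one, ENSRNOT00000044582 at rank 14, with r = 0.988 and an SD of the log2 ratio of 0.13. ENSRNOT00000040993 was nearest to ENSRNOT00000047550 at rank 11, with r = 0.984 and an SD of 0.16. ENSRNOT00000047550 was also among the 3 nearest of ENSRNOT00000042928, at r = 0.971, and of ENSRNOT00000048767, at 0.918. ENSRNOT00000042928 was nearest to ENSRNOT00000051268 at rank 33, with r = 0.980. ENSRNOT00000040038 had ENSRNOT00000043693, at rank 15, among its 3 nearest with r = 0.940. The neighbours of ENSRNOT00000069133 had r of 0.942 to 0.946 and few counts, between 17 and 251 per rat, and none was a member. ENSRNOT00000050156 was nearest to ENSRNOT00000021851 at rank 686, with r = 0.913, and none of its 3 neighbours was a member or among the 20 with the most counts.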

How the data were processed

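Bilateral NAcsh punches of each rat were pooled, RNA was prepared with the Nugen Ovation system, and libraries were sequenced with single reads of 75 bases. In the authors' processing, HISAT2 2.1.0 mapped reads to Ensembl's rat assembly and StringTie 1.3.3.1 quantified transcripts, before and after merging assemblies. They deposited 1 table of whole-number counts per rat, without normalization. How coverage became counts, and any sequencing batch, is not given in the sources used here. No strand setting is given, so transcripts on opposite strands of a locus may share reads.

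Groups came from the housing and abstinence labels. Members and lists were chosen with earlier results of these data known. Transcripts with at least 1 count over all rats were tested in R 4.3.3 with edgeR 4.0.16 (TMM, quasi-likelihood test, Benjamini-Hochberg, 0.05), as an additive model for abstinence and housing and a model of 4 groups for the contrasts. SE is the log2 fold change divided by the root of F. DESeq2 1.42.0, the authors' tool, was an alternative. Correlations used log2 CPM (prior count 2) and permutations in Python 3.11.15 with numpy 2.4.6 and scipy 1.17.1. The 3 nearest transcripts of each member and the 2 ranked below the threshold were named by rule. No 2 libraries held identical values (66 pairs compared). With 3 rats against 3, an exact permutation test cannot go below p = 0.1. Other alternatives changed scaling, the filter, the prior count, the ranking, the denominator and the rats included.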

Additional observations from a re-analysis of the deposited data

How the results depend on the processing

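The same 8 transcripts led when ranked by mean or median share or by summed CPM, and without each rat in turn (8 to 8). Under every alternative run 0 of 8 members were called in each of the 7 comparisons (0 to 0 without 1 rat), and the smallest adjusted p-value was 0.350, by edgeR. Few of all transcripts were called either, so 0 of 8 does not set the members apart. The most were 19 of 28372 with edgeR (without A9) and 208 of 27818 with DESeq2 (interaction). Unlike the list of members and the number of members called, the number of called pairs changed. It was 11 instead of 17 on the log2 share and 11 after subtracting group means, 20 with upper-quartile scaling, and 15 to 19 without 1 rat. The share of the 8 together was 61.3% over the rats, 61.7% of the pooled counts and 60.0% to 62.2% without 1 rat, and with the first transcript left out of members and denominator the other 7 took 35.8%. Exact permutation tests between factor levels gave an unadjusted p-value under 0.05 in 0 of 16 cases on log2 CPM (0 to 0 without 1 rat). On the share they did so in 1 of 16. These tests were run on the 8 members only, so the part of all transcripts that would pass is not known. The causes of these shifts were not tested, beyond the fixed sum of shares.

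Signs of these single values turned. With upper-quartile scaling the Enrichment value of ENSRNOT00000050156 was -0.092. Without 1 rat, the Incubation range was -0.072 to 0.60 for ENSRNOT00000042098, -0.034 to 0.73 for ENSRNOT00000048767, -0.091 to 0.27 for ENSRNOT00000050156 and -0.061 to 0.93 for ENSRNOT00000069133. The Enrichment range was -0.87 to 0.011 for ENSRNOT00000040038, -1.01 to 0.051 for ENSRNOT00000040993, -0.48 to 0.19 for ENSRNOT00000042098, -0.66 to 0.11 for ENSRNOT00000048767 and -0.11 to 0.25 for ENSRNOT00000050156. On the log2 share, r of ENSRNOT00000069133 turned to -0.0526 with ENSRNOT00000040038, -0.409 with ENSRNOT00000048767, -0.767 with ENSRNOT00000042098, -0.192 with ENSRNOT00000040993 and -0.103 with ENSRNOT00000042928, and that of ENSRNOT00000092949 and ENSRNOT00000042098 to -0.0863. Without 1 rat, r ranged from -0.212 to 0.309 for ENSRNOT00000050156 and ENSRNOT00000040038, -0.0493 to 0.520 for ENSRNOT00000050156 and ENSRNOT00000042928, -0.472 to 0.106 for ENSRNOT00000050156 and ENSRNOT00000092949, and -0.104 to 0.348 for ENSRNOT00000069133 and ENSRNOT00000042098.

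No paired analysis was possible because the labels give the groups no shared replicate numbers. The Wilson intervals of the shares cover counting error only, and the part of depth in the spread between rats was not tested.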

Other observations

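In each rat but EE21D rat A13, 1 transcript outside the 8 was among the rat's own 8 highest counts. In 6 rats this was ENSRNOT00000046108, the tenth by sum. Its share was 0.5003% to 0.966% in those rats (IC1D A23, IC21D A24 and A3, EE1D A16 and A27, EE21D A1) and 0.159% to 0.273% in the other 6, so that each group held rats on both sides. ENSRNOT00000003283, rank 13 by sum, took that place in IC1D rats A2 and A20. Over the 12 rats its share ran from 0.148% to 0.969%. ENSRNOT00000093096, rank 12, did so in IC21D rat A9 and EE1D rat A12, and ENSRNOT00000049683, rank 9, in EE21D rat A14. These are values only, and no comparison of groups was made for them.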
